A study of Mus musculus with 5 samples.

Results

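S100 proteins and annexins were examined as 10 genes, S100a1, S100a4, S100a6, S100a10, S100a11, S100a13, S100a16, Anxa1, Anxa2 and Anxa5, out of 25414 genes measured by RNA-seq. The genes were taken by name, through the RefSeq transcript identifiers of the files, and the values of all transcripts of a gene were summed. All 10 were listed in every sample, S100a1 with a value of 0 in STO replicate 2, and all 10 passed the filter on low values. Expression was compared between neural stem cells (NSCs, n = 2) and STO cells (n = 3). The NSCs were primary cells of mouse embryonic cortex at passages 5 to 8, grown on laminin in neural basal medium with EGF and bFGF. The STO cells were a line of SIM mouse embryonic fibroblasts, resistant to thioguanine and ouabain, at more than 30 passages in medium with serum. Both are given the strain C57BL/6, and no treatment is named for either. The cell type, the medium and the time in culture changed together, so they cannot be told apart. Nothing states that the replicates came from separate cultures, so p-values measure the spread between these samples, which may be technical.

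S100 proteins are small proteins that carry EF-hand calcium-binding sites and mostly work as dimers. On binding calcium, most of them change shape and attach to target proteins, and several are also secreted. Annexins bind acidic phospholipids at membranes when calcium rises, and take part in membrane repair, vesicle traffic and cortical actin organization. Some members of both families act together: a dimer of S100a10, which has lost calcium binding, holds a pair of Anxa2 molecules at the plasma membrane, and S100a11 binds Anxa1 in a similar way. Genes of this kind are known from fibroblasts and other adherent mesenchymal cells, while S100b and S100a1 are known from neural cells.

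The identity markers separated the cultures. The NSC marker Nes was at 176 and 169 FPKM (fragments per kilobase of transcript, scaled to the library's depth) in NSC samples and at 0.0380 to 0.0724 FPKM in STO samples. Sox2, Pax6 and Olig2 were at 276 to 308, 5.04 to 5.22 and 493 to 499 FPKM in NSCs and were listed at 0 in every STO sample. The fibroblast markers Col1a1, Col1a2, Col3a1, Fn1 and Thy1 summed to 5.00 to 5.10 FPKM in NSCs and to 1328 to 1437 in STO cells. The astrocyte markers Gfap, Aqp4, Aldh1l1 and Slc1a3 summed to 309 to 313 in NSCs and to 24.8 to 26.7 in STO cells. Most of the NSC sum was Slc1a3, at 249 and 245, with Gfap at 15.9 and 16.9. The neuron markers Tubb3, Dcx and Map2 summed to 115 in both NSC samples and to 12.3 to 12.8 in STO cells, and Tubb3 alone did not differ (limma adjusted p = 0.477). Map2, at 100 and 102, made up most of the neuron sum in NSCs. Microglia and leukocyte markers stayed at or below 0.191 in sum and endothelial markers at or below 0.187. The NSC cultures thus held RNA of astrocyte and neuron markers, whose part in the values below was not tested, and in bulk RNA fewer cells of a type and less RNA per cell cannot be told apart. The fragments implied by the deposited intervals came to 15223341 to 22271895 per sample, and no sample stood apart from its group (Pearson's r across genes, which are not independent replicates, of 0.994 between the NSC samples and 0.995 to 0.996 among the STO samples).

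STO cells had more RNA of 7 of the 10 genes and less of the other 3 than NSCs did, with all 10 past the threshold of an adjusted p of 0.05 in limma, Benjamini-Hochberg adjusted over 12292 genes. The cell types differed widely, and of all genes tested 41.9% were called higher and 43.7% lower in STO cells, 85.6% in all. That all 10 were called is therefore close to the background. The 10 genes were chosen with earlier results of these data known, so the sizes given next only describe them. S100a1 and S100a13 passed the filter through NSCs only and Anxa1 through STO cells only, which set their direction. A difference of at least 2 in log2(FPKM + 1) together with the call was found in all 10 genes and in 16.1% of the genes tested. The samples of the groups did not overlap for any of the 10, which was also the case for 89.9% of the genes tested. The 7 higher genes were S100a4, S100a6, S100a10, S100a11, Anxa1, Anxa2 and Anxa5, and the 3 lower ones were S100a1, S100a13 and S100a16. The median of log2(FPKM + 1), STO minus NSC, was 2.98 over the 10 genes and -0.023 over all genes tested.

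**Figure D1:**
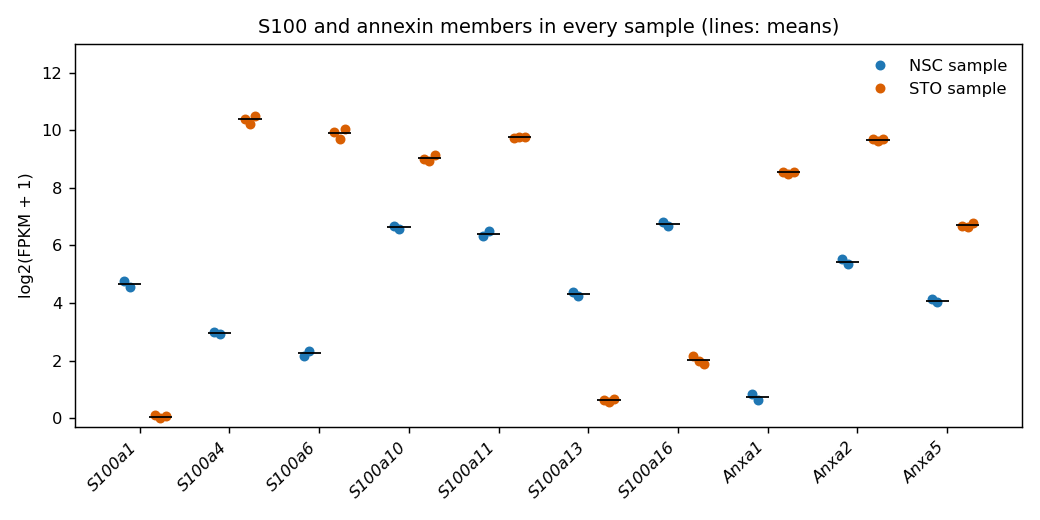
Expression of the 10 genes in every sample, as log2(FPKM + 1) on the vertical axis, with NSC samples in blue, STO samples in orange and a line at each mean. S100a1, S100a13 and S100a16 are higher in NSCs, the other 7 are higher in STO cells, and the groups do not overlap for any gene.

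The S100a genes with opposite calls lie in the same cluster of chromosome 3. In the mm9 coordinates of the files, the S100 genes from S100a1 to S100a9 cover 184.7 kb. S100a1 occupies 90314956 to 90318252 on the minus strand, S100a13 90318357 to 90328503 and S100a16 90341176 to 90347073, both on the plus strand. After a further 60.6 kb, S100a4 occupies 90407692 to 90409967 and S100a6 90416816 to 90418336, both on the plus strand. S100a11 (93324418 to 93330210) and S100a10 (93359039 to 93368567) lie 2825 kb further on, 28.8 kb apart. Of the annexins, Anxa5 lies elsewhere on chromosome 3 (36347846 to 36374809, minus strand), Anxa2 on chromosome 9 (69301490 to 69339592, plus strand) and Anxa1 on chromosome 19 (20447924 to 20465161, minus strand). In GENCODE models of this build the S100 genes have 3 exons, or 4 in S100a13, and the annexins 13 or 14.

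Sequences upstream of gene starts are shown next, for neighbours in the cluster and for some of the 10 genes that lie elsewhere. Whether these sequences bear on expression was not tested. S100a1 and S100a13 are transcribed away from each other from starts that are 104 bases apart, so a single stretch lies upstream of both. It is given on the plus strand of mm9, chr3:90318253-90318356, and holds none of the 4 motifs searched.
S100a1 to S100a13: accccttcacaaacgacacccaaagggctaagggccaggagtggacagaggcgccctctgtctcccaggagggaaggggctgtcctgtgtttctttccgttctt
The other windows are the 250 bases before a RefSeq start site on the gene's strand, in GRCm38.p6, where 9 of the 10 genes had an entry. Capitals mark matches, on either strand, to an AP-1 motif (TGANTCA), a TEAD motif (GGAATG), a GC box (GGGCGG) or the TATA box (TATAAA). No match overlapped another. S100a4 and S100a6 are shown first, as neighbours that are both high in STO cells, at chr3:90603520-90603769 and chr3:90612644-90612893.
S100a4: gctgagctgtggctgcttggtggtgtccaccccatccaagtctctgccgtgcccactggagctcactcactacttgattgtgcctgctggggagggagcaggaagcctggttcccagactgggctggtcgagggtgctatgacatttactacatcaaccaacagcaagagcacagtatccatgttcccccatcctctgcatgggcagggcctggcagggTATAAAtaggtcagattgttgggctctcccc
S100a6: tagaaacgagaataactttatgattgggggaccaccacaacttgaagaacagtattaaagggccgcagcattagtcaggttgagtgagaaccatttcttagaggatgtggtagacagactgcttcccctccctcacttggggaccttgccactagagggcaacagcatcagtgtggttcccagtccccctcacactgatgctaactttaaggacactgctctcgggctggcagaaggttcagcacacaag
S100a16, low in STO cells, has windows for 2 of its start sites in the promoter table, at chr3:90537004-90537253 and chr3:90540896-90541145.
S100a16 upstream start: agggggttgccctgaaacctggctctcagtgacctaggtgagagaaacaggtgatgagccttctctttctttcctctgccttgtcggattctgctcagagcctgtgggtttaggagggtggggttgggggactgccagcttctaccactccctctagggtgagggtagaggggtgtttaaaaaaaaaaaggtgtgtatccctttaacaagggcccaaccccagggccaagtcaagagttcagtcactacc
S100a16 downstream start: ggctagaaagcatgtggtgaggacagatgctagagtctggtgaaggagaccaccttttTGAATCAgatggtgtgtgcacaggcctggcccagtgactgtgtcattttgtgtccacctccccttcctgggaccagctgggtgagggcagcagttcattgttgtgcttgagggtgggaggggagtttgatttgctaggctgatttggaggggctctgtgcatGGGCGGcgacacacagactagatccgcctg
The windows of Anxa5, also high in STO cells, and of S100a1 and S100a13 are not printed. S100a11 (chr3:93520246-93520495), Anxa2 (chr9:69453433-69453682) and Anxa1 (chr19:20390672-20390921), all high in STO cells, are the last shown.
S100a11: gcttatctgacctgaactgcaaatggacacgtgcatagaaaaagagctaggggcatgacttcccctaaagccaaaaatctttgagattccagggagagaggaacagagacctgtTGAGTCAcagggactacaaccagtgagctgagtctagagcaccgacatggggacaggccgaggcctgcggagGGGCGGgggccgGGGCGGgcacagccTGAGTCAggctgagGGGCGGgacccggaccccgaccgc
Anxa2: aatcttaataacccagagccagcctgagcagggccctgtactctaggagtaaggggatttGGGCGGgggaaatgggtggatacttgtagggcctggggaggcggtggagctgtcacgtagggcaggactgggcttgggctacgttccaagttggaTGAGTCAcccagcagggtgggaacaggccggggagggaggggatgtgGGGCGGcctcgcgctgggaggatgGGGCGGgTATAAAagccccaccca
Anxa1: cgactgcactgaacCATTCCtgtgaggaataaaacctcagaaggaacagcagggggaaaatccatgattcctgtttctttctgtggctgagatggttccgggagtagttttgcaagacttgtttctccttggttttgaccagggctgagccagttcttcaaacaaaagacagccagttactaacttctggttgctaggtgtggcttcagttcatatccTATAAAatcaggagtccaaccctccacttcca
TGAGTCA, a full AP-1 motif, occurred 2 times before S100a11 and 1 time before Anxa2, and TGAATCA before the downstream start of S100a16, which is lower in STO cells. In all, 3 of the 10 windows of these genes held an AP-1 match, against 6.75% of 32851 promoters of this length. A TATA box was present in 3 of 10 (Anxa1, Anxa2 and S100a4) against 12.4% of all, a GC box in 3 of 10 against 32.7%, and a TEAD match in 1 of 10, in Anxa1, against 12.6%. In S100a4 and Anxa1 the TATA box began 31 and 32 bases before the start, and in Anxa2 17 bases before it. S100a6 and the upstream start of S100a16 held none of the 4, nor did Anxa5 or the windows of S100a1 and S100a13, which share the 104 bases above. A match is a sequence of letters only, and no binding was measured.

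Among the 7 genes higher in STO cells, S100a4 was the most abundant there. S100a4, also called metastasin, binds non-muscle myosin and is widely used as a fibroblast marker. Its level was 6.95 and 6.63 FPKM in NSC replicates 1 and 2, and 1354, 1202 and 1448 FPKM in STO replicates 1, 2 and 3. The lowest STO sample was far above the highest NSC sample. The means were 6.79 ± 0.22 (SD, n = 2) and 1334 ± 124 (SD, n = 3), a ratio of 197, and the difference in log2(FPKM + 1) was 7.42 ± 0.089 (SE, limma adjusted p = 7.89e-09). By mean FPKM it ranked 11 of 25414 genes in STO cells and 7826 in NSCs.

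S100a6, or calcyclin, a protein linked to proliferating cells and to the actin cytoskeleton, followed the same pattern. It stood at 3.45 and 4.08 FPKM in the NSC samples and at 988, 833 and 1047 FPKM in the STO samples. The STO samples were all high, with replicate 2 the lowest, as it was for S100a4. The mean rose from 3.76 ± 0.44 (SD, n = 2) to 956 ± 111 (SD, n = 3), which is 254 times, with a difference in log2(FPKM + 1) of 7.65 ± 0.11 (SE, limma adjusted p = 1.52e-08). Only 6.85 kb separate it from S100a4. S100a5, which lies between them, reached at most 0.448 FPKM in an STO sample and was listed at 0 in both NSC samples.

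S100a10 and S100a11 were already well expressed in NSCs. S100a10, the partner of Anxa2, was at 102 and 94.4 FPKM in NSCs and at 517, 493 and 562 FPKM in STO cells. Every STO sample was higher, and the mean was 5.35 times that of NSCs (98.0 ± 5.07, SD, n = 2, against 524 ± 35.3, SD, n = 3), with a difference in log2(FPKM + 1) of 2.41 ± 0.079 (SE, limma adjusted p = 4.82e-07). S100a11, a growth-regulating family member that binds Anxa1, was at 79.2 and 89.5 FPKM in NSCs and at 846, 869 and 875 FPKM in STO cells. The STO values lay close together, at a mean 10.2 times that of NSCs, and the difference was 3.34 ± 0.073 (SE, limma adjusted p = 7.48e-08). At 2 other places of the genome, sequences at least 95% identical to the S100a11 transcript were found over nearly its whole length, so reads can be shared and its level is uncertain to that extent. No such copy was found for the other 9 genes.

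Anxa1, also called lipocortin, restrains phospholipase A and the inflammatory response. Its values were 0.798 and 0.562 FPKM in NSCs and 376, 356 and 379 FPKM in STO cells. NSCs were near 0, with 34.2 and 26.9 implied fragments, whereas each STO sample had at least 11455. The difference in log2(FPKM + 1) was 7.79 ± 0.075 (SE, limma adjusted p = 5.29e-09), and only 10 of the 12292 genes tested rose more. The ratio of the mean FPKM values was 545.

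Anxa2, the membrane and actin-binding partner of S100a10, rose from a moderate level. It was at 44.8 and 40.1 FPKM in NSCs and at 822, 786 and 839 FPKM in STO cells. The STO samples were within 27.2 FPKM of SD around a mean of 815, and that mean was 19.2 times the NSC mean of 42.5 ± 3.39 (SD, n = 2). The difference in log2(FPKM + 1) was 4.23 ± 0.072 (SE, limma adjusted p = 2.54e-08). Anxa5, which binds phosphatidylserine and serves in the laboratory as a stain for dying cells, was at 16.5 and 15.5 FPKM in NSCs and at 101, 99.9 and 110.3 FPKM in STO cells. All STO samples were higher, by 6.47 times on average, with a difference of 2.62 ± 0.066 (SE, limma adjusted p = 1.42e-07).

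The 3 genes lower in STO cells were at a mean of 0.0398 (S100a1), 0.538 (S100a13) and 3.05 FPKM (S100a16) there. S100a1, a calcium sensor of muscle and brain, was at 26.3 and 22.4 FPKM in NSCs and at 0.0721, 0 and 0.0473 FPKM in STO cells. The STO values rested on 1, 0 and 1 implied fragments, so the STO samples cannot be told apart from each other at this depth. The difference in log2(FPKM + 1) was -4.60 ± 0.079 (SE, limma adjusted p = 2.62e-08). From 970 implied fragments in NSCs and 2 in STO cells, the ratio of NSCs to STO cells was 616, with a 95% exact interval of 170 to 5097 that covers counting error only.

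S100a13, which takes part in the release of FGF family member Fgf1 by a route outside the secretory pathway, was at 19.7 and 18.2 FPKM in NSCs and at 0.558, 0.487 and 0.570 FPKM in STO cells. It was detected in each STO sample, from 9 to 14 implied fragments. The NSC mean was 35.2 times the STO mean, and the difference in log2(FPKM + 1) was -3.69 ± 0.059 (SE, limma adjusted p = 1.94e-08). S100a1 and S100a13 thus were both low in STO cells on either side of the 104 bases shown above.

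S100a16, a broadly expressed family member, was among the most abundant S100 genes of NSCs. It was at 110.3 and 101 FPKM in NSCs and at 3.48, 2.93 and 2.73 FPKM in STO cells. Its NSC level overlapped that of S100a10, so the order of these 2 in NSCs was not resolved. The NSC mean was 34.7 times the STO mean, and the difference in log2(FPKM + 1) was -4.72 ± 0.092 (SE, limma adjusted p = 4.52e-08).

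Read along the chromosome, the calls changed sign inside the cluster. Chtop, the nearest gene before S100a1, was at 97.8 ± 12.0 FPKM (SD, n = 2) in NSCs and 60.2 ± 1.23 (SD, n = 3) in STO cells, a difference in log2(FPKM + 1) of -0.69 ± 0.082 (SE, limma adjusted p = 0.000272). S100a1, S100a13 and S100a16 then fell within 32.1 kb, while S100a14 between them was at or below 0.147 FPKM in every sample. S100a3, which follows, was at 1.39 and 1.25 FPKM in NSCs and 0.430 to 0.524 FPKM in STO cells (difference -0.66, limma adjusted p = 3.37e-05). With quantile normalization its sign turned (0.17, limma adjusted p = 0.0696). In STO cells S100a3 rested on 7, 7 and 9.1 implied fragments, all given to a transcript listed at 0 in NSCs. S100a2, inside the span of the S100a3 transcripts, was listed at 0 throughout. S100a4 and S100a6 rose, and S100a7a behind them was at 1.10 to 2.21 FPKM in STO cells and listed at 0 in NSCs. S100a8 was at 0.0987 to 0.594 FPKM in STO cells and at 0 in NSCs, and S100a9 and Pglyrp4, the next gene, were listed at 0 in every sample. The genes on either side of S100a11 and S100a10, Tchhl1 and Tdpoz2, were listed at 0 in every sample, while the pair between them was high in STO cells.

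**Figure D2:**
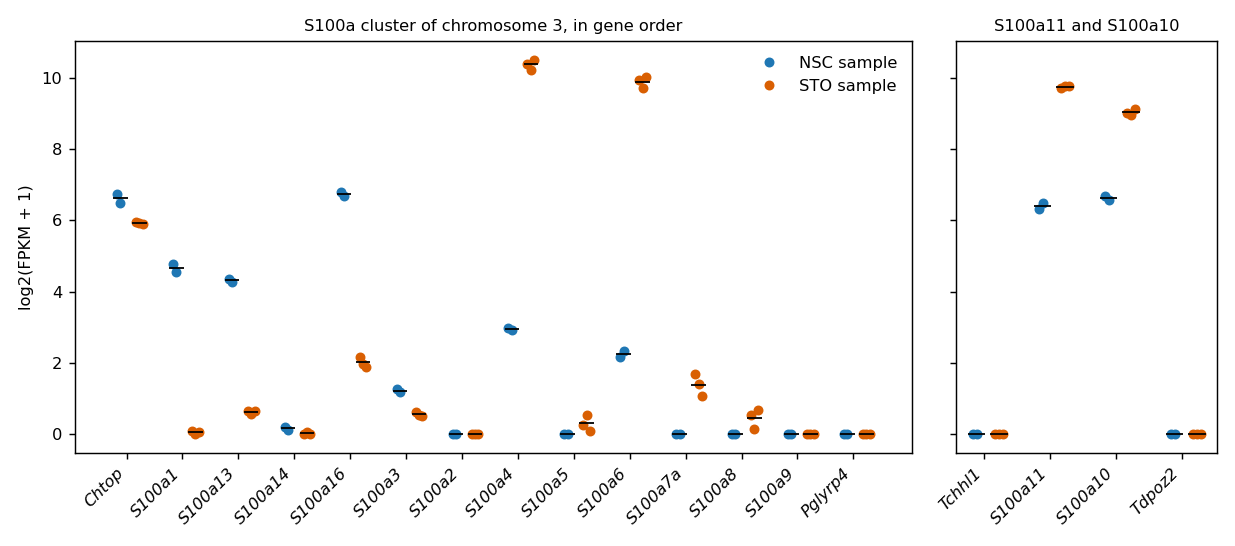
Expression along the S100a cluster of chromosome 3, as log2(FPKM + 1), with genes in chromosomal order and their nearest neighbours on each side (left) and S100a11 and S100a10 with theirs (right). NSC samples are blue, STO samples orange, and lines mark means. The NSC points are above the STO points for S100a1, S100a13 and S100a16, and far below them for S100a4 and S100a6.

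The make-up of the families changed with their totals. FPKM summed over 18 S100 genes was 355 and 344 in NSCs and 3714, 3404 and 3940 in STO cells, 10.5 times higher on average. In NSCs, S100a16 took 30.2% ± 1.25 (SD, n = 2) of it, S100a10 28.0% ± 0.85, S100a11 24.1% ± 2.60, S100a1 6.96% ± 0.64 and S100a13 5.41% ± 0.18. In STO cells, S100a4 took 36.2% ± 0.76 (SD, n = 3), S100a6 25.9% ± 1.23, S100a11 23.5% ± 1.78 and S100a10 14.2% ± 0.28, and S100a16 0.083%. S100a11 was the exception, with shares that overlapped between the cell types (22.3% and 26.0% in NSCs, 22.2% to 25.5% in STO cells). These shares are uncertain to the extent that S100a11 shares reads with its near-identical copies. Of 12 annexin genes, the sum was 94.1 and 87.9 FPKM in NSCs and 1604, 1538 and 1644 FPKM in STO cells, 17.5 times higher. Anxa2 took the largest share in both, 46.6% ± 1.49 (SD, n = 2) and 51.1% ± 0.12 (SD, n = 3). Anxa1 made up 0.743% ± 0.15 of the annexin total in NSCs and 23.2% ± 0.21 in STO cells, while Anxa5 went from 17.6% ± 0.038 to 6.49% ± 0.22 although its level was higher in STO cells.

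**Figure D3:**
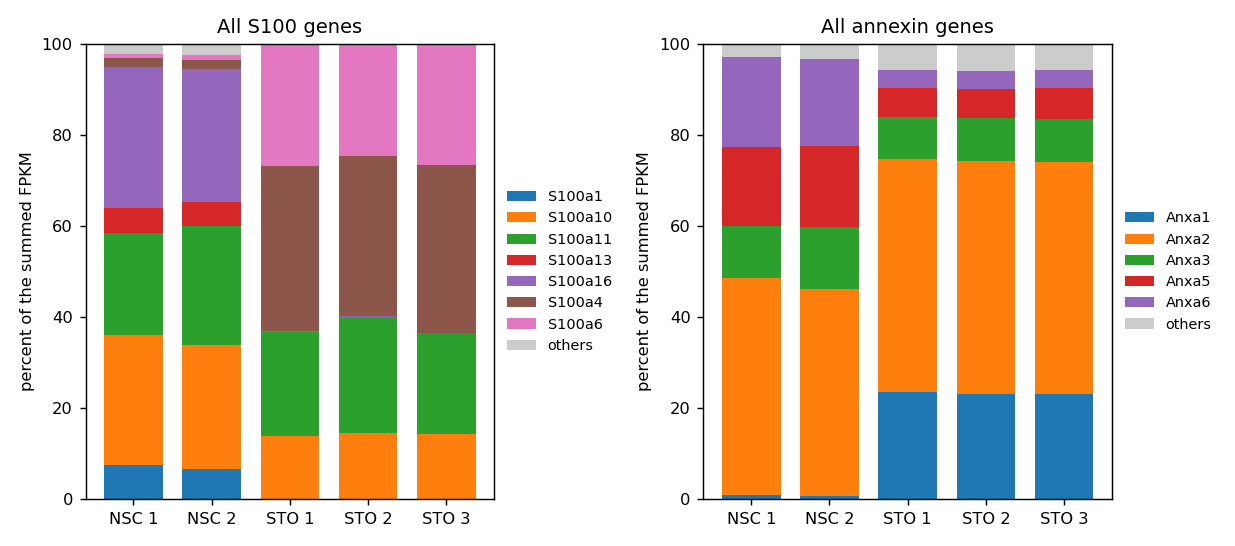
Share of each gene in the summed FPKM of all S100 genes (left) and all annexin genes (right), in percent, stacked for each sample; genes that never reach 3% are pooled as others. S100a16, S100a1 and S100a13 fill part of the NSC bars and are replaced by S100a4 and S100a6 in STO cells, while Anxa2 is near 50% in all 5 samples.

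FPKM is scaled by length, so the values of partners were set side by side within a sample. Whether equal FPKM means equal RNA of different genes was not tested. S100a11 can share reads with its near-identical copies, so its ratios are uncertain to that extent. The ratio of S100a10 to Anxa2 was 2.27 and 2.36 in NSCs and 0.629, 0.627 and 0.671 in STO cells. By FPKM, S100a10 was thus above Anxa2 in both NSC samples and below it in all 3 STO samples. The ratio of S100a11 to Anxa1 was 99.2 and 159 in NSCs, where Anxa1 was near 0, and 2.25, 2.44 and 2.31 in STO cells. The ratio of S100a11 to Anxa2 was 1.77 and 2.23 in NSCs and 1.03, 1.11 and 1.04 in STO cells. None of these ratios overlapped between the cell types, and each gave p = 0.1 in a two-sided exact permutation test of the log2 ratios, the smallest p that 2 against 3 samples allow, so no ratio could pass 0.05 in this design.

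**Figure D4:**
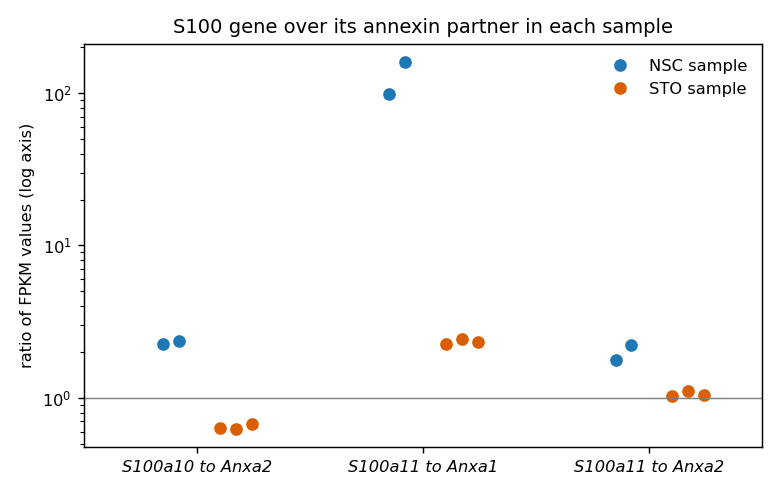
Ratio of FPKM values of an S100 gene to its annexin partner in each sample, on a log axis, with a line where both are equal; NSC samples are blue and STO samples orange. For S100a10 to Anxa2 the NSC points (2.27 and 2.36) lie above the line and the STO points (0.627 to 0.671) below it.

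The other genes of the families were taken from a list. Of 9 other S100 genes, 4 were tested, of which 2 rose and 2 fell. Over all genes tested, 41.9% were called higher and 43.7% lower in STO cells. These 4 each passed the filter through a single cell type, which set their direction. S100b, a marker of astrocytes and their precursors, was at 5.95 and 6.87 FPKM in NSCs and at 0.0699 to 0.214 FPKM in STO cells. Its difference in log2(FPKM + 1) was -2.71 (limma adjusted p = 3.05e-07), and 43.7% of all genes tested fell too. S100a3 was the other that fell, and S100a7a and S100g rose from 0 in NSCs to at most 2.21 and 1.70 FPKM in STO cells. Of 9 other annexins, all 5 that were tested rose. Anxa3 was at 10.7 and 12.0 FPKM in NSCs and 145 to 156 FPKM in STO cells, Anxa4 at 0.365 and 0.377 against 44.4 to 46.1, Anxa6 at 18.6 and 17.0 against 61.9 to 67.4, Anxa7 at 0.922 and 1.16 against 26.7 to 28.1, and Anxa11 at 1.34 and 1.21 against 17.6 to 19.6. Their median difference in log2(FPKM + 1) was 3.61, beside -0.023 over all genes tested. With the 3 above, all 8 annexins that passed the filter were higher in STO cells, where 41.9% of all genes tested were. However, Anxa1 and Anxa4, at means of 0.680 and 0.371 FPKM in NSCs, passed the filter through STO cells only, which set their direction. Anxa9, Anxa10 and Anxa13 were listed at 0 in every sample and Anxa8 stayed at or below 0.635 FPKM.

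Of 28 partner genes, 18 were tested, and 12 rose and 6 fell, with a median difference of 0.47 in log2(FPKM + 1), beside -0.023 over all genes tested. That all 18 were called is near the background of 85.6%, with 41.9% of all genes tested higher and 43.7% lower in STO cells. Ahnak and Plau passed the filter through STO cells only, and Fgf1, Kcnk3, Htr1b and Syt1 through NSCs only, which set their direction. Among the partner genes tied to S100a10 and Anxa2, Ahnak, a giant scaffold of the cell cortex, was at 0.142 and 0.112 FPKM in NSCs and at 90.9, 97.4 and 76.7 FPKM in STO cells, a difference of 6.30 ± 0.10 (SE, limma adjusted p = 2.24e-08). The pair is also known as a surface receptor for plasminogen activation. Plau, the urokinase activator, rose from 0.936 and 0.979 FPKM in NSCs to 22.6 to 23.4 FPKM in STO cells, and its receptor Plaur from 1.22 and 1.69 FPKM to 23.4 to 25.4 FPKM. Plat, the tissue activator, fell from 180 and 188 FPKM to 16.1 to 16.8 FPKM (difference -3.40, limma adjusted p = 1.55e-08), and the plasminogen receptor Plgrkt fell by 0.67 on the log2 scale. Plg itself was at or below 0.0316 FPKM. Hltf, a chromatin remodeller that binds the pair, rose by 0.55 on the log2(FPKM + 1) scale. The channel Kcnk3 and the serotonin receptor Htr1b, which S100a10 brings to the membrane, fell by 1.83 and 0.90 from levels under 3 FPKM, while Trpv5 and Trpv6 were at or below 0.0217 FPKM. Dlc1, a tumour suppressor, differed by 0.19 (limma adjusted p = 0.0185), and this call was lost without NSC replicate 2 (adjusted p = 0.0785) or STO replicate 1 (adjusted p = 0.0539).

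Partners of the other members were measured as well. Myh9, the non-muscle myosin heavy chain bound by S100a4, was at 41.3 and 41.6 FPKM in NSCs and 171 to 192 FPKM in STO cells (difference 2.08, limma adjusted p = 4.31e-07), and Ppfibp1, a liprin that S100a4 binds, rose by 1.42. Both moved in the direction of S100a4, as did 41.9% of all genes tested. Cacybp and Sugt1, which bind S100a6, rose by 0.40 and 0.29, small beside the change of S100a6, and the call of Sugt1 was lost without NSC replicate 1 (adjusted p = 0.0743). Pla2g4a, the cytosolic phospholipase A linked to Anxa1 and S100a10, was at 2.23 and 2.32 FPKM in NSCs and 31.8 to 33.5 FPKM in STO cells. The Anxa1 receptors Fpr1 and Fpr2 did not exceed 0.335 FPKM. Dysf, a membrane repair protein that meets annexins at wounds, rose by 1.16.

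Fgf1 fell, as did S100a13 and 43.7% of all genes tested. It was at 36.6 and 39.4 FPKM in NSCs and at 0.147, 0.0792 and 0.0893 FPKM in STO cells. NSC and STO samples were far apart, with a difference in log2(FPKM + 1) of -5.14 ± 0.060 (SE, limma adjusted p = 7.47e-09). Syt1, the synaptotagmin named in the same release complex, fell by 1.13 from 1.34 and 1.18 FPKM. With quantile normalization the difference of Syt1 was only -0.24 (limma adjusted p = 0.0288). Il1a, another cargo, was at or below 0.0322 FPKM. Of the genes tied to S100a1, Atp2a2, the calcium pump of the reticulum, rose by 0.56, and the channels Ryr1, Ryr2 and Ryr3 were at or below 0.303 FPKM in every sample. Ager, a receptor for secreted S100 proteins, was at or below 0.997 FPKM in every sample and was not tested.

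**Figure D5:**
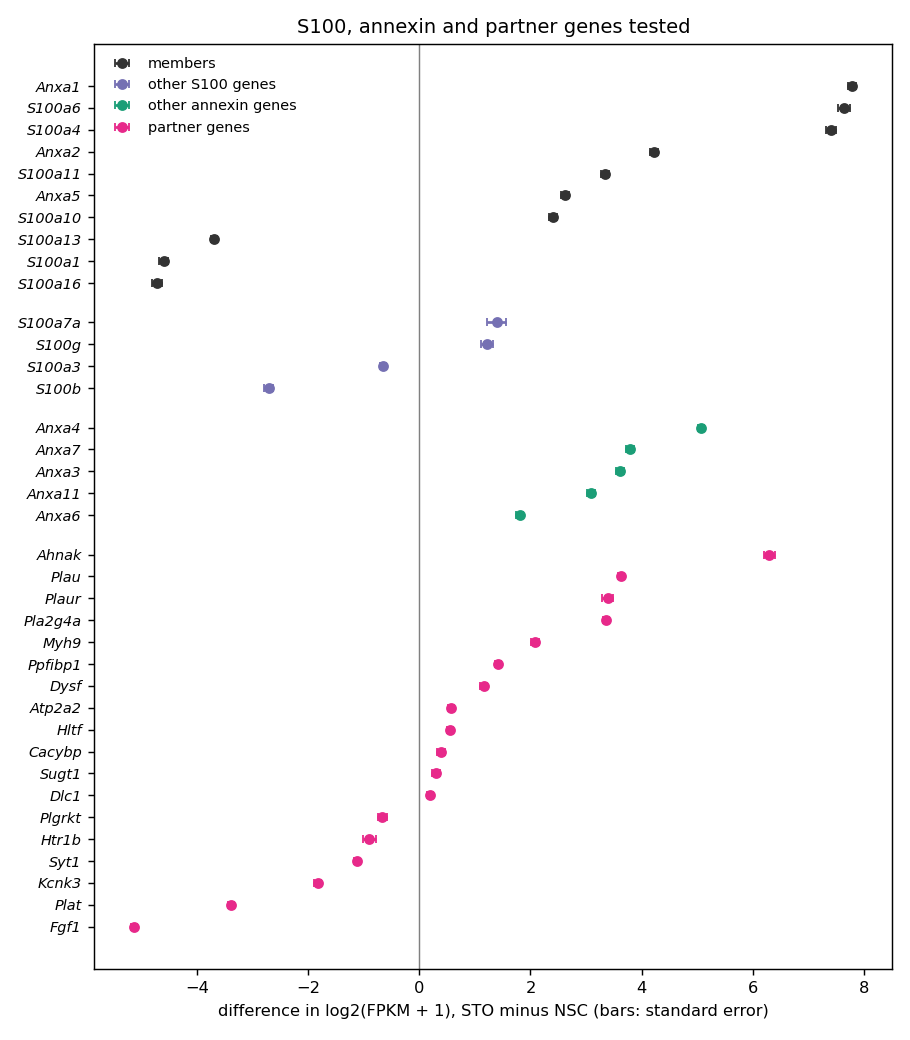
Difference in log2(FPKM + 1), STO minus NSC, with its standard error from limma, for the S100, annexin and partner genes that passed the filter, grouped by list. All 8 annexins lie right of 0, S100 genes lie on both sides, and Ahnak (6.30) and Fgf1 (-5.14) are the extremes of the partner genes.

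Within each cell type the levels could be ranked by FPKM. In STO cells S100a4 was highest, and S100a6 overlapped both S100a11 and Anxa2, so the order of S100a6 among these was not resolved. S100a10, Anxa1 and Anxa5 followed without overlap, and then S100a16, S100a13 and S100a1 at a mean of 3.05, 0.538 and 0.0398 FPKM. In NSCs S100a16 and S100a10 came first, followed by S100a11, Anxa2, S100a1, S100a13, Anxa5, S100a4, S100a6 and Anxa1, with no overlap between neighbours after S100a10.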

How the data were processed

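Per the study's methods, stranded mRNA libraries were sequenced as paired ends, and reads were trimmed, aligned to mm9 with Hisat2 (version given as 4.8.2) and quantified on RefSeq with Cufflinks 2.2.1. The authors deposited FPKM values with the bounds of their confidence intervals for 40201 transcripts. Depth was already divided out, no read counts were used, and whether strand was used in counting is not stated. Symbols were matched through RefSeq identifiers (99.4% of transcripts), and FPKM was summed over transcripts of 1 symbol with overlapping loci. Cell types were compared with limma 3.58.1 (R 4.3.3), using its trend option for the variance prior, on log2(FPKM + 1), a scale that understates changes of low genes, for 12292 genes with a mean of at least 1 FPKM in NSCs or STO cells. Benjamini-Hochberg adjustment was over all of them. The fit was also run on simulated data in which far fewer genes differed than here, so that run does not check these p-values. Implied fragments take the distance from a value to its upper bound as 2 Poisson standard deviations. Copies were sought in NCBIM37, the Ensembl name of mm9, with blastn 2.17.0 (at least 95% identity over 100 bases), and promoters are from RefSeq. The members, lists and alternatives (pseudocount, filter, scaling, trend, replicate block, left-out replicates, larger differences, single transcripts, failed estimates) were chosen with earlier results of these data known. Named genes were the members, the genes of the lists (partner genes with values where a mean reached 1 FPKM, otherwise by their upper limit), genes of the cluster by position and the 3 genes of nearest pattern. Some genes of the lists are not reported here. Tables were handled with pandas 2.3.3 in Python 3.11.15, sequences with biopython 1.88 and exact tests with scipy 1.17.1.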

Additional observations from a re-analysis of the deposited data

How the results depend on the processing

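All 10 genes kept their direction and passed the threshold under each of the 13 alternative fits, with adjusted p of at most 0.000551. With a difference of at least 1 in log2(FPKM + 1) also required, 2103 genes rose and 2617 fell from NSCs to STO cells, and 7 partner genes were higher and 1 other S100 gene lower. With quantile normalization 1 other S100 gene was lower, since S100a3 reversed. Scaling every sample to the same FPKM sum moved the median difference of all genes by 0.16 and gave 5901 higher and 4649 lower genes, against 5153 and 5375. Both cell types have replicates numbered 1 and 2, and nothing in the labels or the paper pairs them. Deviations of same-numbered samples correlated at 0.0075 and 0.061. A replicate block in the fit gave 4994 higher and 5252 lower genes, and 7 of the 10 genes were higher and 3 lower. Leaving out each replicate gave 4704 to 5065 higher and 4900 to 5253 lower genes, where a lone NSC sample was assumed to vary like the STO samples. The 3 ratios kept their direction with a pseudocount of 1 and with each replicate left out, the alternatives run for them. Depth limits S100a1 in STO cells, which rests on 2 implied fragments. No value could be tested for an outlying sample with 2 and 3 replicates.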

Other observations

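The 7 RefSeq transcripts of S100a16 begin at 3 positions of mm9, 90341176, 90345068 and 90345083. Transcripts with the first start held 23.1% and 20.7% of S100a16 FPKM in NSC replicates 1 and 2, and 60.4%, 70.2% and 100% in STO replicates 1, 2 and 3. The fall of S100a16 was thus uneven: transcripts of the first start went from 25.4 and 20.9 FPKM to 2.10, 2.06 and 2.73 FPKM, and those of the later starts from 84.9 and 80.0 FPKM to 1.38, 0.875 and 0 FPKM. In STO cells these values rest on 61.6 to 99.4 implied fragments that Cufflinks divided among overlapping transcripts, so the split is uncertain there, and it was not tested.

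The genes whose values lay closest to those of a member, by Euclidean distance of log2(FPKM + 1) over the 5 samples among the 12292 genes tested, included other members for S100a4, S100a6, S100a11 and Anxa2. S100a4 and S100a6 were nearest to each other (1.32), followed by H19 (3.13) for S100a4 and Pcolce (2.14) for S100a6. S100a11 was nearest to Ifitm2 (1.06), S100a10 (1.31) and Anxa2 (1.41). For Anxa1 the nearest were Slpi (0.748), C3 (0.979) and Col1a2 (1.06), and for S100a1 they were Necab2 (0.0971), Liph (0.127) and Sox11 (0.140). S100a16 lay nearest to Kcnip3 (0.319) and S100a13 to Shc4 (0.250). With 2 cell types, a small distance means similar levels in both and says nothing further about these genes.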
